A study of Mus musculus with 6 samples.

Results

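The peptidylarginine deiminase genes Padi1, Padi2, Padi3, Padi4 and Padi6 stand side by side on mouse chromosome 4, and the genes nearest to them are described here in testes lacking Padi2 or both Padi2 and Padi4. Members were the genes whose GRCm38 start lies in the 5 Mb from position 140000000 of chromosome 4 and that have at least 10 counts in at least 2 libraries, leaving out the 5 Padi genes. Of the 153 annotated genes of this interval, 47 met the rule, against 20942 of all 55536 genes of the table that reach the same counts. They comprise 39 protein-coding genes and 8 others, with 4 starting below the Padi genes and 43 above, while 57 of the 148 genes other than Padi genes had 0 counts in all 6 libraries.

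Poly(A) RNA of whole testes from 4-month-old males was sequenced with 2 mice, and thus 2 libraries, per genotype. WT mice were FVB/NJ. P2KO mice were homozygous for a Padi2 gene trap in which LacZ and Neomycin sequence stands in for part of exon 1. DKO mice carried the same Padi2 allele together with a 4-nucleotide Cas9 deletion in exon 1 of Padi4. All 3 lines were kept inbred and homozygous on the FVB/NJ background. The DKO line descends from 1 founder that was crossed back to P2KO mice. In DKO against P2KO the Padi4 deletion and descent from that founder thus cannot be told apart. In either knockout against WT, the targeted alleles cannot be told apart from DNA inherited with them or from other differences between the lines.

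Peptidylarginine deiminases convert arginine in proteins to citrulline, a change that removes the positive charge of the residue and that is known on histones. When an allele is made in one genome and moved into a strain by breeding, genes close to it on the chromosome tend to be inherited with it. Neighbours of a targeted gene are therefore commonly examined beside the gene itself.

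Libraries held from 21939393 to 27306679 counts on genes. Padi4, encoding the deiminase best known from white blood cells, had 20 and 43 counts in WT, 11 and 10 in P2KO, and 4 and 4 in DKO libraries. Padi2 had 47 and 64 counts in WT, 100 and 55 in P2KO, and 59 and 83 in DKO libraries, so its counts were not lower in the knockouts and do not check their labels. The germ cell markers Ddx4, Sycp3, Acrv1, Prm1, Prm2 and Tnp1 summed to 206295 to 250022 normalized counts per library, while the 4 epididymis markers had at most 10 counts each and Lcn5 had 0. Of the 5 Leydig cell markers, which summed to 16028 and 15606 normalized counts in WT and 20702 and 16918 in DKO libraries, Star, Cyp11a1 and Cyp17a1 rose and Hsd3b1 fell in DKO against WT (log2 fold changes 0.51, 0.28, 0.31 and -0.46). Before scaling, Cyp11a1 had 2276 and 2856 counts in WT and 3714 and 2595 in DKO libraries. Cyp17a1 had 8171 and 9233 in WT and 13211 and 8856 in DKO libraries. Both rises thus rest largely on DKO replicate 1. Of the 6 germ cell markers, Prm1 and Tnp1 fell in the same comparison, by 0.22 and 0.25 on the log2 scale (edgeR's quasi-likelihood test, adjusted p = 0.0302 and 0.013). The adipose marker Car3, a carbonic anhydrase gene, had 10 and 30 counts in WT, 0 and 0 in P2KO, and 8 and 14 in DKO libraries, and was called lower in P2KO than in WT and higher in DKO than in P2KO (edgeR, adjusted p = 0.000462 and 0.00744), while the 4 adipose markers together summed to 247 to 299 normalized counts per library. The part of these cell types in the results below was not tested.

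The members differed widely in level. As RPKM, the counts scaled to exon length and library size, the median WT level of the 47 genes was 1.84, against 2.77 for all 20744 tested genes. Spata21, a spermatogenesis-associated gene, stood first at 402 and 378 RPKM in WT, 456 and 388 in P2KO and 527 and 491 in DKO libraries, which ranks it 91st among the tested genes in WT. It alone supplied 36.8% to 43.9% of the counts on the 47 genes, which together hold 0.268% to 0.31% of a library. The antisense gene AI507597 followed with a mean of 201 RPKM in WT, and then 1700012P22Rik at 64.3, Fhad1, which encodes a protein with a forkhead-associated domain, at 63.1, and Efhd2, encoding a calcium-binding EF-hand protein, at 56.0. The WT values of the last 3 were 61.5 and 67.1, 66.1 and 60.0, and 62.1 and 49.9, so the order among them does not exceed the spread between libraries. At the other end, Arhgef19, a guanine nucleotide exchange factor gene, had a mean of 0.0938 RPKM, and 12 members averaged under 30 normalized counts over the 6 libraries. A normalized count here is the count scaled to a common library size.

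**Figure D1:**
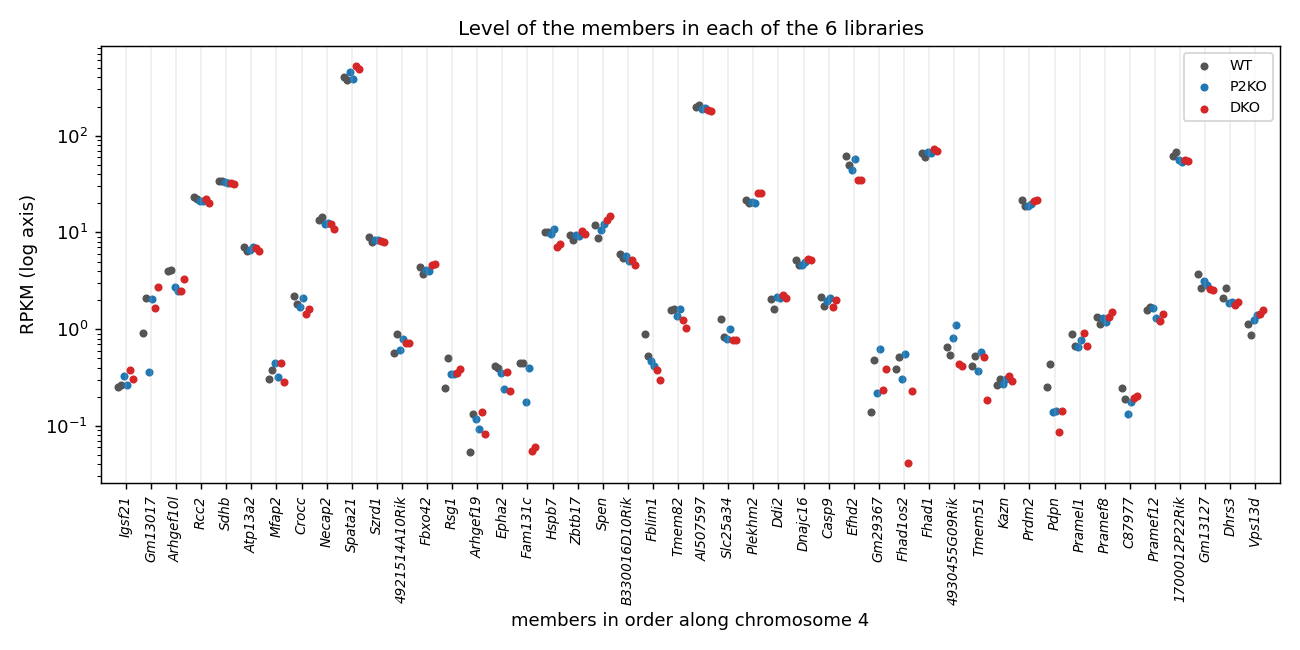
RPKM (log axis) of 46 of the 47 genes in the 2 WT, 2 P2KO and 2 DKO libraries, 1 point per library, in order along chromosome 4. Spata21 stands highest at 378 to 527 RPKM, and points of the 3 genotypes lie close together for most genes above 1 RPKM.

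Each knockout was compared with WT, and DKO with P2KO, to ask whether the neighbours of the Padi genes were expressed at another level in the knockout testes. In P2KO against WT, 0 members rose and 1 fell, Arhgef10l, against 0.198% and 0.14% of all tested genes called higher and lower (edgeR's quasi-likelihood test, Benjamini-Hochberg adjusted p under 0.05 over all tested genes). In DKO against WT, 4 members rose (Spata21, Spen, Plekhm2 and Vps13d) and 5 fell (Arhgef10l, Fam131c, Hspb7, Fblim1 and Efhd2), against 2.06% and 1.16% of all tested genes. Upper-quartile scaling gave 4 higher and 8 lower there, while the calls over all tested genes went from 428 to 367 higher and from 240 to 322 lower. In DKO against P2KO, 2 rose (Spata21 and Plekhm2) and 2 fell (Hspb7 and Efhd2), against 0.607% and 0.598%. Thus 9 members were called in at least 1 comparison and 38 in none, and only Fam131c and Fblim1 were called with a change of 2-fold or more. At an unadjusted p under 0.05 the members numbered 8, 20 and 12 in the 3 comparisons, and all tested genes 8.57%, 14.1% and 11.8%. Fewer cells of a type and less RNA per cell cannot be told apart in whole testis, and p-values over 2 mice per genotype measure only the spread between these samples.

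Counted without a test, the libraries of the genotypes did not overlap for 3 members higher and 13 lower in P2KO than in WT, where 37.5% of all tested genes did not overlap. For DKO against WT these were 11 higher and 20 lower, or 66.0% of members against 43.2% of all tested genes. For DKO against P2KO they were 13 higher and 13 lower, or 55.3% against 42.8%. The median absolute log2 fold change of the members was 0.13, 0.257 and 0.179 in the 3 comparisons, against 0.108, 0.126 and 0.119 over all tested genes, and the signed medians of -0.069, -0.064 and -0.003 lay near 0.

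**Figure D2:**
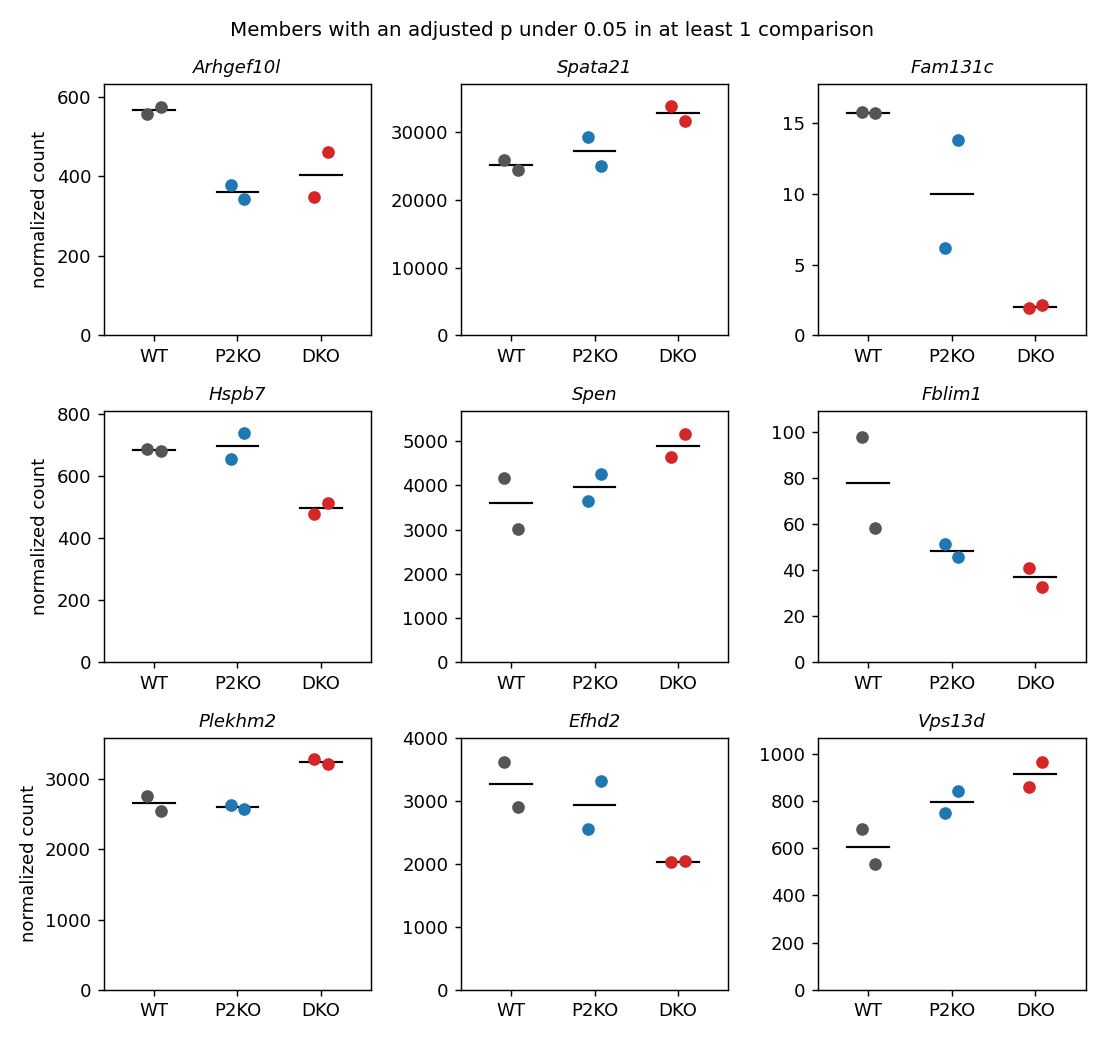
Normalized counts (axes from 0) of the 9 members called in at least 1 comparison, 1 point per library and a bar at each genotype's mean. DKO points lie above all WT points for Spata21, Spen, Plekhm2 and Vps13d and below them for the other 5 genes.

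Of the 5 genes called in 2 comparisons, Arhgef10l, Spata21, Hspb7 and Efhd2 are shown with the sequence before their annotated start. The outermost annotated transcript of each gene begins right after it. Counts are per gene, so which start is used in these testes was not examined. The window of the fifth, Plekhm2, lies within its annotated gene body and is not shown. These come from the RefSeq promoter table (GRCm38.p6), which held 35 of the 47 members. Each line is given 5′ to 3′ on the gene's strand, with up to 250 bases before the start and without any bases inside the annotated gene. Capitals mark the GC box, GGGCGG on either strand. The windows are chr4:140666013-140666155 on the minus strand for Arhgef10l, chr4:141088095-141088332 on the plus strand for Spata21, chr4:141420529-141420778 on the plus strand for Hspb7, and chr4:141874921-141875170 on the minus strand for Efhd2.
Arhgef10l: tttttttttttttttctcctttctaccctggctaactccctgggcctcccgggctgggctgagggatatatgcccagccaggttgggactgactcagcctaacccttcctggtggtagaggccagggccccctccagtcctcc
Spata21: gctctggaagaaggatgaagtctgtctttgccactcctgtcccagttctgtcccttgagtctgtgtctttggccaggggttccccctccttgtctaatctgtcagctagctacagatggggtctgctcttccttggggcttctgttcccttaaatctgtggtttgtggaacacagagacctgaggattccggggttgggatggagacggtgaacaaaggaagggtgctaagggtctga
Hspb7: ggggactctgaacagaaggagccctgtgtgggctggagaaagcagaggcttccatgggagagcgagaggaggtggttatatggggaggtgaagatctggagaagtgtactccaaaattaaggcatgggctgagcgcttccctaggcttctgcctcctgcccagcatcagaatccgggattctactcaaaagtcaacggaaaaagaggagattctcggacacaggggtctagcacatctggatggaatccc
Efhd2: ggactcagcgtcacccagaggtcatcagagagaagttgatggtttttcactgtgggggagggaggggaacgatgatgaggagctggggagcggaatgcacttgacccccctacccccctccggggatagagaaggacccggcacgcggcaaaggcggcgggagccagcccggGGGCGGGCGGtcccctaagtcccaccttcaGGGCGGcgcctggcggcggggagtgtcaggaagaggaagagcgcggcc
The Efhd2 window held 3 GC boxes, of which the first 2 share bases, and the other 3 windows held none. Over the 250 bases before the RefSeq start, 21 of 35 members and 5 of the 9 called members held at least 1 GC box, as did 32.7% of 32851 promoters in the table. These windows lay wholly inside the gene of the annotation used for the counts for 6 of the 35 members, Plekhm2 with its GC box among them, and partly inside it for 10. The androgen receptor half-site AGAACA, searched on both strands, was in 2 of 35 members (Mfap2 and Dhrs3), in none of the 9 called members, and in 16.1% of all promoters. The cAMP response element TGACGTCA, a palindrome, was in 1 member (Epha2) and in 1.55% of all promoters. The member windows are 1 per gene, from the start farthest upstream, while the shares of all promoters count every entry of the table. Members also had to reach the count rule, so these shares are not a like comparison. The matches are a description of letters, not of binding.

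Below the Padi genes, Arhgef10l (chromosome 4, 140514485 to 140666012, minus strand), a guanine nucleotide exchange factor that activates small GTPases, fell in both knockouts. It had 557 and 574 normalized counts in WT, 377 and 342 in P2KO, and 347 and 460 in DKO libraries. Both libraries of either knockout lay below both WT libraries, and the DKO libraries overlapped those of P2KO. The log2 fold change was -0.65 ± 0.11 (SE) in P2KO against WT (edgeR, adjusted p = 0.000699) and -0.49 ± 0.11 in DKO against WT (edgeR, adjusted p = 0.00529), the same WT libraries being used in both. DKO differed from P2KO by 0.16 with a 95% interval from -0.07 to 0.39 (edgeR, adjusted p = 0.627). The fall in P2KO kept its call in each of the 16 alternatives run, with log2 fold changes from -0.73 to -0.59, whereas the fall in DKO became -0.30 without DKO replicate 1 (edgeR, adjusted p = 0.3) and was not called in DESeq2 on the 2 genotypes (adjusted p = 0.0991).

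The genes next to the Padi cluster were close to WT levels. Rcc2, a regulator of mitosis and chromosome condensation whose end lies 4135 bases below Padi6, had 2370 and 2230 normalized counts in WT, 2159 and 2164 in P2KO and 2251 and 2073 in DKO libraries. Sdhb, the iron-sulfur subunit of succinate dehydrogenase, starts 8617 bases above Padi2 and had 1848 and 1878, 1801 and 1794, and 1791 and 1736. Atp13a2, a lysosomal transport ATPase 34287 bases above Padi2, had 1032 and 951, 977 and 1039, and 1014 and 949. The 3 genes thus stayed within a narrow range in all libraries, and none was called. Within that range, Sdhb libraries did not overlap in any comparison, WT being highest and DKO lowest. Rcc2 libraries were lower without overlap in P2KO than in WT only, and those of Atp13a2 overlapped throughout. Of all tested genes, 37.5%, 43.2% and 42.8% did not overlap in P2KO against WT, DKO against WT and DKO against P2KO.

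For Sdhb the 95% intervals of the log2 fold change ran from -0.19 to 0.08 in P2KO against WT, from -0.21 to 0.06 in DKO against WT, and from -0.16 to 0.11 in DKO against P2KO. Those of Rcc2 ran from -0.22 to 0.05, -0.22 to 0.05 and -0.13 to 0.14, and those of Atp13a2 from -0.13 to 0.18, -0.17 to 0.15 and -0.19 to 0.12. Mfap2, a microfibril gene of the extracellular matrix 57832 bases above Padi2, and the long non-coding RNA gene Gm13017, 330751 bases below the cluster, had 26.5 normalized counts or fewer in every library. Their intervals in DKO against WT ran from -0.94 to 1.18 for Mfap2 and from -0.51 to 1.48 for Gm13017 and so reached past a 2-fold rise, a change that was not detectable at this depth.

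**Figure D3:**
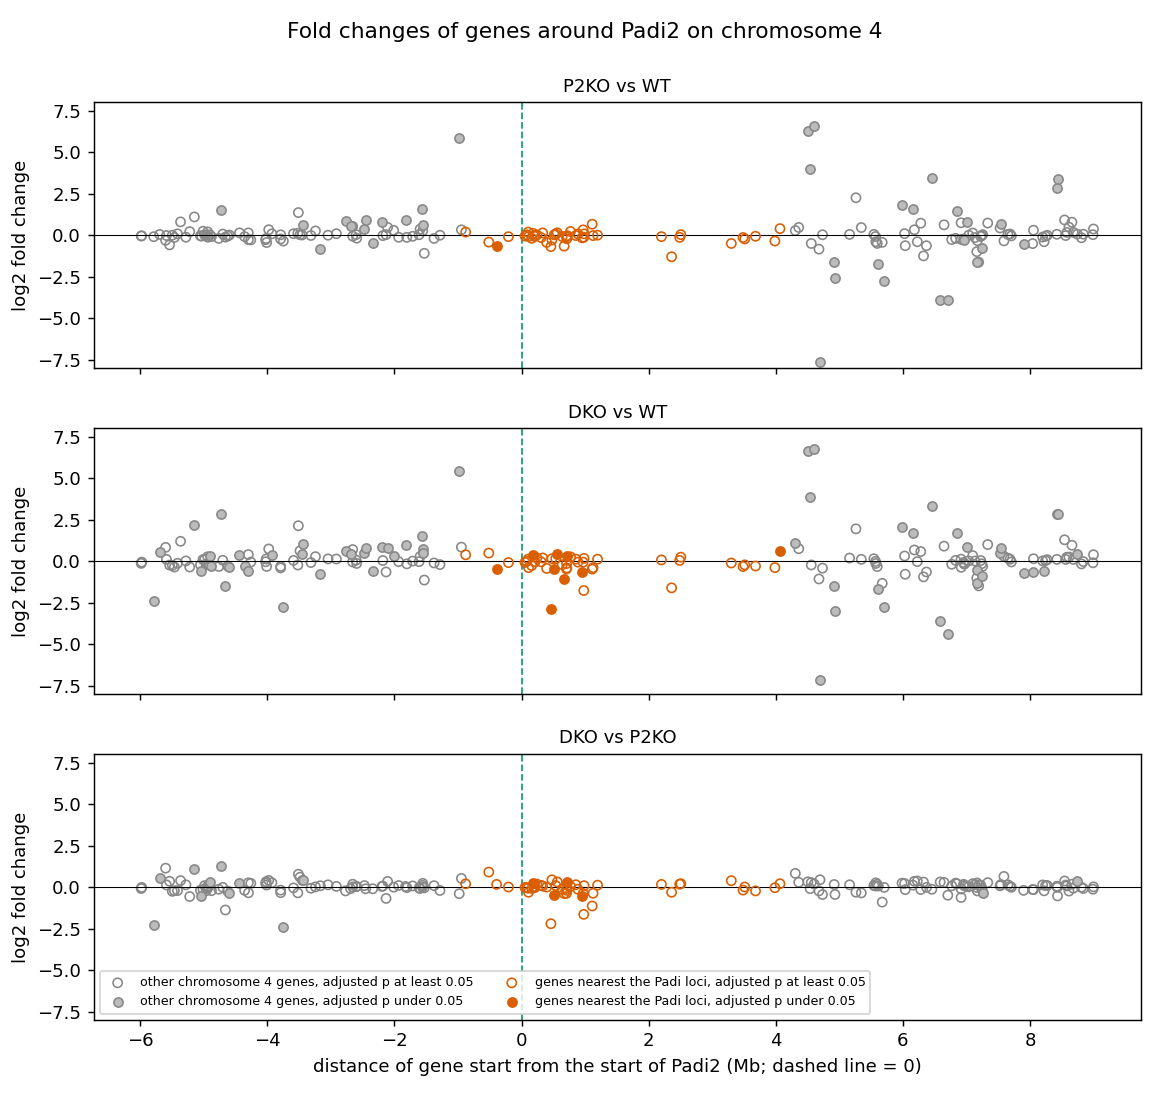
Log2 fold change (vertical axis) against the distance of each gene's start from the start of Padi2 in Mb (horizontal axis) for tested chromosome 4 genes, in 3 panels by comparison, with filled points for an adjusted p under 0.05. The orange points of the 47 genes nearest the Padi loci lie closer to 0 in P2KO against WT than many grey points farther away, and 9 of them are filled in DKO against WT.

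Of the 9 members in the list for cytoskeleton, cilia, adhesion and matrix, 1 rose and 2 fell in DKO against WT, and 0 were called in P2KO against WT. Spata21 (141088333 to 141112760, plus strand), linked to the differentiation of haploid male germ cells, had 25958 and 24392 normalized counts in WT, 29392 and 25008 in P2KO, and 33975 and 31697 in DKO libraries. Both DKO libraries were above the other 4, and the P2KO libraries overlapped WT. It rose by 0.38 ± 0.0604 (SE) on the log2 scale in DKO against WT, or 1.30-fold (edgeR, adjusted p = 5.99e-05), with values from 0.33 to 0.43 and a call in each alternative. It rose by 0.27 ± 0.0603 in DKO against P2KO (edgeR, adjusted p = 0.0112), and that call was lost without P2KO replicate 2 (0.17, edgeR, adjusted p = 0.395) or DKO replicate 1 (0.22, edgeR, adjusted p = 0.289) and in DESeq2 on the 2 genotypes (adjusted p = 0.197).

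Hspb7 (141420779 to 141425311, plus strand), a small heat shock protein best known from heart muscle, had 687 and 679 normalized counts in WT, 655 and 736 in P2KO, and 478 and 514 in DKO libraries. WT and P2KO overlapped, and both DKO libraries were lower than the other 4. It fell by 0.46 ± 0.0915 (SE) on the log2 scale in DKO against WT (edgeR, adjusted p = 0.00141) and by 0.49 ± 0.091 against P2KO (edgeR, adjusted p = 0.00163). In P2KO against WT its interval ran from -0.16 to 0.20. Without DKO replicate 1 the fall against WT was -0.41 (edgeR, adjusted p = 0.064) and that against P2KO -0.44 (edgeR, adjusted p = 0.0959), and without P2KO replicate 2 the latter was -0.40 (edgeR, adjusted p = 0.095).

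Fblim1 (141576062 to 141606096, minus strand), encoding migfilin, a LIM protein of cell-matrix adhesions, had 98.0 and 58.3 normalized counts in WT, 51.4 and 45.8 in P2KO, and 41.2 and 32.9 in DKO libraries. Libraries of the 3 genotypes did not overlap, and the WT libraries were the farthest apart. It fell by 1.05 ± 0.26 (SE) on the log2 scale in DKO against WT (edgeR, adjusted p = 0.0144), and P2KO against WT gave -0.66 (edgeR, adjusted p = 0.398). Without WT replicate 1 the DKO value was -0.65 (edgeR, adjusted p = 0.278), without DKO replicate 1 it was -1.23 (edgeR, adjusted p = 0.0622), and without DKO replicate 2 it was -0.90 (edgeR, adjusted p = 0.232). DESeq2 on the 2 genotypes did not call it (adjusted p = 0.29). Fhad1, at 9956 and 9047 normalized counts in WT, 10153 and 9936 in P2KO and 10872 and 10412 in DKO libraries, was not called in any comparison, with an interval from 0.05 to 0.28 in DKO against WT. It overlaps Fhad1os2 on the other strand.

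Among the 6 members in the list for signalling and cell death, Efhd2 and Arhgef10l fell in DKO against WT and 0 rose. Efhd2 (141858142 to 141874920, minus strand), encoding the calcium sensor swiprosin-1, had 3630 and 2915 normalized counts in WT, 2554 and 3326 in P2KO, and 2027 and 2041 in DKO libraries. The DKO libraries nearly coincided and lay below the other 4, which overlapped between WT and P2KO. It fell by 0.68 ± 0.0872 (SE) on the log2 scale in DKO against WT, or 1.61-fold (edgeR, adjusted p = 1.44e-06), with a call in each alternative and values from -0.84 to -0.52. It fell by 0.53 ± 0.0873 in DKO against P2KO (edgeR, adjusted p = 0.00025), a call that was lost without P2KO replicate 2 (-0.32, edgeR, adjusted p = 0.114) and in DESeq2 on all 6 libraries or on the 2 genotypes (adjusted p = 0.271 and 0.0612). P2KO against WT gave -0.16 (edgeR, adjusted p = 0.639), which was a call without WT replicate 2 (-0.31, edgeR, adjusted p = 0.0099) and took the other sign without WT replicate 1 (0.01, edgeR, adjusted p = 0.991). Casp9, the initiator caspase of mitochondrial cell death, had 271 and 220 normalized counts in WT, 250 and 265 in P2KO and 215 and 256 in DKO libraries, and its interval in DKO against WT ran from -0.33 to 0.21. Its exons overlap those of Cela2a and Ctrc on the other strand.

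Of the 8 members in the list for protein turnover and trafficking, Plekhm2 and Vps13d rose in DKO against WT and 0 fell. Plekhm2 (141625734 to 141664899, minus strand), an adaptor that links lysosomes to kinesin, had 2767 and 2554 normalized counts in WT, 2635 and 2579 in P2KO, and 3287 and 3217 in DKO libraries. Both DKO libraries were above the other 4, and P2KO lay within the range of WT. It rose by 0.29 ± 0.063 (SE) on the log2 scale in DKO against WT (edgeR, adjusted p = 0.00399) and by 0.32 ± 0.0629 against P2KO (edgeR, adjusted p = 0.00317). Both calls were lost without DKO replicate 1, at 0.27 against WT (edgeR, adjusted p = 0.0958) and 0.30 against P2KO (edgeR, adjusted p = 0.105). That against WT was also lost without WT replicate 2 or DKO replicate 2 (0.23 and 0.30, edgeR, adjusted p = 0.066 and 0.0537), and that against P2KO without P2KO replicate 2 (0.31, edgeR, adjusted p = 0.0652).

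Vps13d (144972622 to 145195005, minus strand), a lipid transfer protein needed for mitochondrial upkeep, starts last in the interval and had 680 and 533 normalized counts in WT, 748 and 843 in P2KO, and 860 and 967 in DKO libraries. WT was lowest and DKO highest, with no overlap between genotypes. It rose by 0.60 ± 0.0965 (SE) on the log2 scale in DKO against WT, or 1.51-fold (edgeR, adjusted p = 8.97e-05), and was called in each of the 16 alternatives, at 0.77 without WT replicate 1 and 0.42 without WT replicate 2. P2KO against WT gave 0.39 ± 0.0973 (edgeR, adjusted p = 0.0701), with 0.57 (edgeR, adjusted p = 9.86e-05) without WT replicate 1 and 0.22 (edgeR, adjusted p = 0.784) without WT replicate 2. The exons of Vps13d span 24771 bases, against a median of 2942 over the members. With fold changes corrected for gene length, an alternative added after seeing the data, the rise in DKO against WT was 0.37 (edgeR, adjusted p = 0.00648).

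Among the 4 members in the list for chromatin, transcription and cell cycle, Spen rose in DKO against WT and 0 fell. Spen (141467890 to 141538597, minus strand), a large RNA-binding corepressor of transcription, had 4163 and 3022 normalized counts in WT, 3658 and 4260 in P2KO, and 4638 and 5157 in DKO libraries. The DKO libraries were above the other 4, while WT and P2KO overlapped. It rose by 0.45 ± 0.087 (SE) on the log2 scale in DKO against WT (edgeR, adjusted p = 0.00104), and DKO against P2KO gave 0.31 (edgeR, adjusted p = 0.0739). This last value was called in 6 of 16 alternatives, with no filter on low counts (edgeR, adjusted p = 0.000197), in edgeR or DESeq2 on the 2 genotypes (adjusted p = 8.18e-05 and 0.00331), and without WT replicate 1, WT replicate 2 or P2KO replicate 2 (edgeR, adjusted p = 4.1e-05, 1.1e-05 and 0.0437). In DESeq2 on all 6 libraries or on the 2 genotypes the value of 0.45 was not called (adjusted p = 0.394 and 0.759), nor was 0.37 without DKO replicate 2 (edgeR, adjusted p = 0.114). Its size depended on which WT library was kept and was 0.69 without WT replicate 1 and 0.23 without WT replicate 2. In P2KO against WT, leaving out WT replicate 1 gave 0.38 (edgeR, adjusted p = 9.21e-05) in place of 0.14 (edgeR, adjusted p = 0.705), and leaving out WT replicate 2 gave -0.07. Spen has 14089 bases of exon and was called at 0.31 with the length correction (edgeR, adjusted p = 0.00884), and its exons overlap those of Zbtb17 on the other strand.

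Prdm2, a histone methyltransferase gene, had 3968 and 3433 normalized counts in WT, 3416 and 3546 in P2KO, and 3875 and 3896 in DKO libraries, with an interval from -0.06 to 0.20 in DKO against WT. Zbtb17, encoding the MYC partner Miz-1, had 899 and 799 in WT, 903 and 863 in P2KO, and 976 and 904 in DKO libraries, with an interval from -0.02 to 0.32. Neither gene was called in any comparison.

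Of the 4 channels and other membrane proteins, Fam131c (141368220 to 141384175, plus strand) fell in DKO against WT. This gene of little known function had 15.8 and 15.7 normalized counts in WT, 6.21 and 13.8 in P2KO, and 1.92 and 2.12 in DKO libraries. The DKO libraries were the lowest, and the genotypes did not overlap. The 2 DKO libraries held 4 counts in all, against 31 in WT and 20 in P2KO, so WT was 7.83-fold above DKO with a 95% counting interval from 2.77 to 30.5. This interval covers counting error only. The call in DKO against WT (edgeR, adjusted p = 0.0109) was lost without either DKO library (edgeR, adjusted p = 0.162 and 0.15) and without WT replicate 2 (edgeR, adjusted p = 0.0644), and P2KO was 4.81-fold above DKO without a call (edgeR, adjusted p = 0.175). Tmem82, with 154 and 156 normalized counts in WT, 134 and 159 in P2KO and 123 and 101 in DKO libraries, was not called (DKO against WT -0.47, edgeR, adjusted p = 0.121) and overlaps AI507597 on the other strand.

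**Figure D4:**
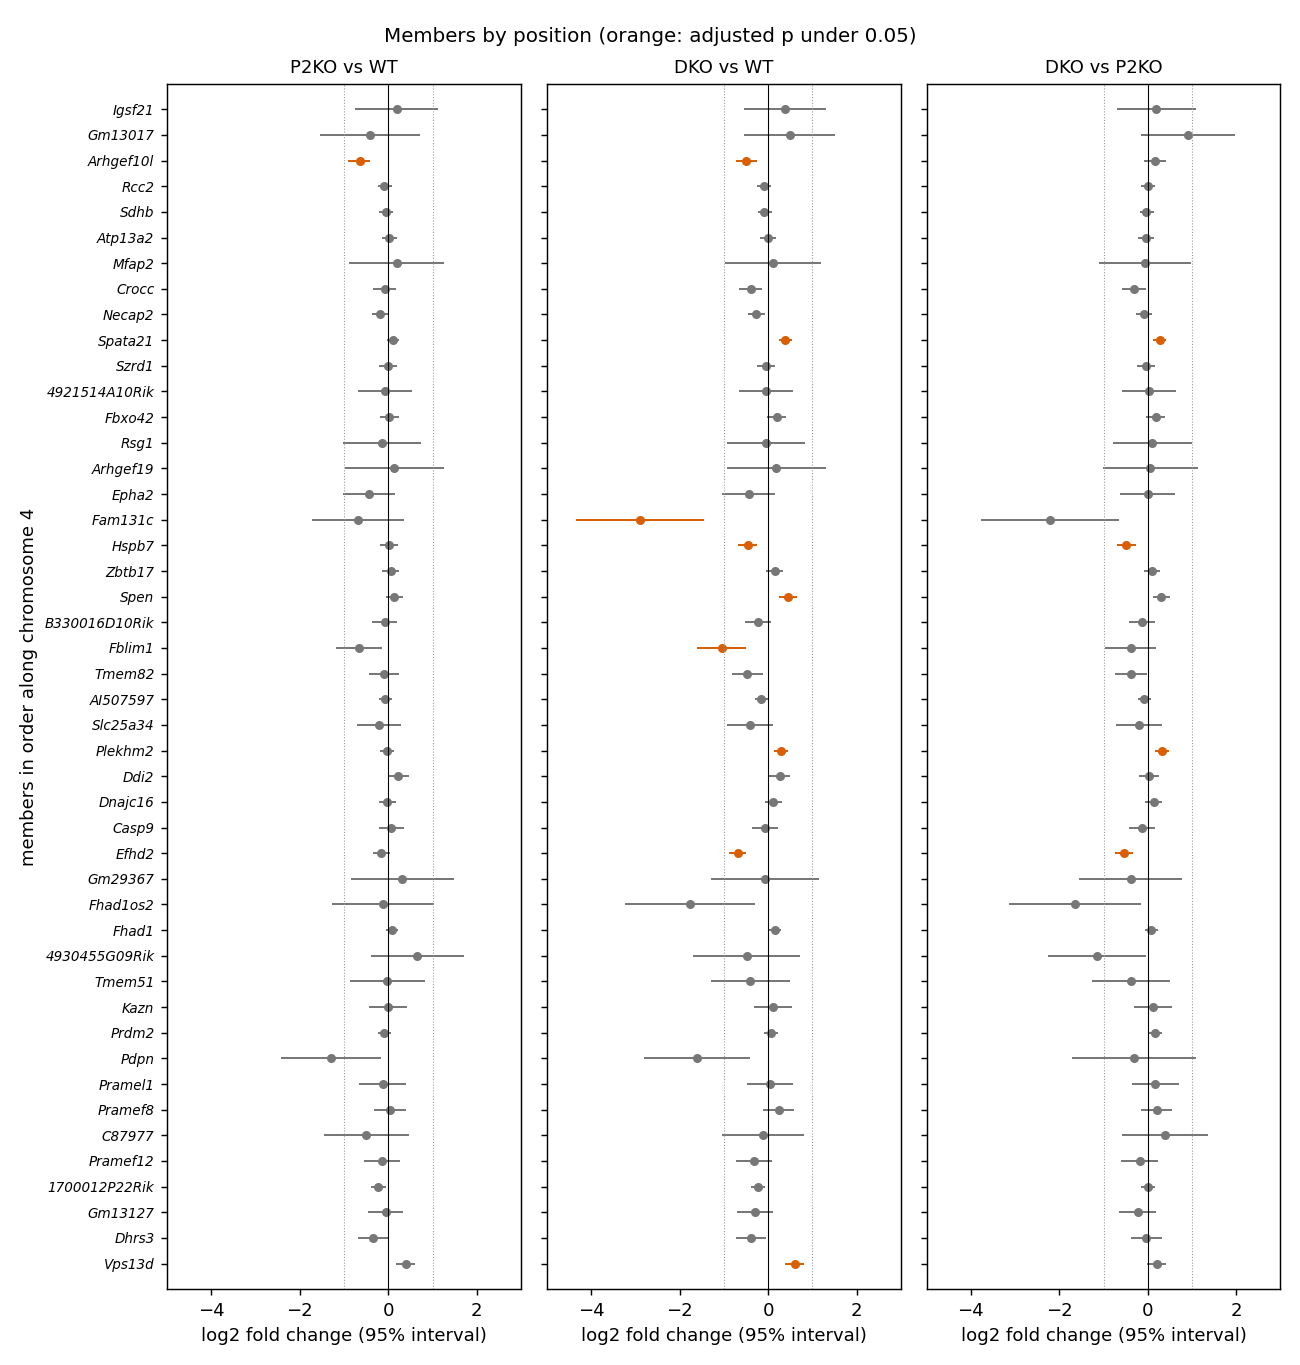
Log2 fold change with its 95% interval for 46 of the 47 genes, in order along chromosome 4 and in 3 panels by comparison, with dotted lines at a 2-fold change and orange for an adjusted p under 0.05. Arhgef10l alone is orange in P2KO against WT, and the widest intervals belong to genes with few counts such as Fam131c and Fhad1os2.

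In the other lists no member was called. Of 3 members for energy and metabolism, Sdhb is given above, and Dhrs3, a retinaldehyde reductase, had 152 and 192 normalized counts in WT, 134 and 137 in P2KO and 128 and 136 in DKO libraries, with -0.39 in DKO against WT (edgeR, adjusted p = 0.208). The PRAME-like family, known from germ cells and early embryos, was listed by symbols starting Pramel, Pramef or Oog. Of the 13 genes so listed, 3 were members and 6 had 0 counts in every library. C87977, a member outside this list, has a near-identical copy in Oog1, so the list does not hold all relatives. Pramef8 had 115 to 156 and Pramef12 75.7 to 106 normalized counts per library. The log2 fold changes of the 3 listed members in DKO against WT ran from -0.32 to 0.24. The digestive protease genes of the interval and the arylacetamide deacetylase-like genes, 2 of each, had no member.

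Among the members in no list, AI507597, which lies antisense to Tmem82, had 4562 and 4770 normalized counts in WT, 4388 and 4515 in P2KO, and 4289 and 4152 in DKO libraries, with -0.15 in DKO against WT (edgeR, adjusted p = 0.222). The coding gene 1700012P22Rik had 1469 and 1604 in WT, 1349 and 1277 in P2KO, and 1335 and 1299 in DKO libraries. Both knockouts lay below WT for 1700012P22Rik without a call, at -0.23 in P2KO (edgeR, adjusted p = 0.255) and -0.22 in DKO (edgeR, adjusted p = 0.0849). The pseudogene B330016D10Rik had 193 to 252 normalized counts per library. Among all members, exons of 10 overlapped another gene on the other strand and those of 2 on the same strand, and C87977 and Gm13127 have a near-identical copy elsewhere, so their values are uncertain.

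Most members were bounded. The 95% interval of the log2 fold change lay within a 2-fold change either way for 34, 34 and 36 of the 47 genes in P2KO against WT, DKO against WT and DKO against P2KO. All 23 members with a mean of at least 200 normalized counts were so bounded in each comparison. Of the uncalled members, the lowest adjusted p values were 0.0701 for Vps13d in P2KO against WT, 0.0589 for Necap2, a clathrin adaptor partner, in DKO against WT, and 0.0739 for Spen in DKO against P2KO (edgeR).

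By position, 28 of the 47 members start in the second Mb of the interval. They included 3 of the 4 that rose and 4 of the 5 that fell in DKO against WT, where 19.1% of all members were called. As most members lie there, these counts do not show that calls gather in that Mb. The other 2 were Arhgef10l below the cluster and Vps13d at the upper end. The 7 members of the third and the fourth Mb had no call in any comparison, but are too few to be set apart. Just inside the limits of the interval stand Igsf21 and Vps13d. Just outside, Klhdc7a, starting at 139960220, had 28 and 36 counts in WT, 43 and 41 in P2KO and 58 and 58 in DKO, without a call. Tnfrsf1b, starting at 145213463, had 25 and 41, 32 and 51, and 78 and 65, and was called in DKO against WT (edgeR, adjusted p = 0.0144). Beyond Klhdc7a, 4933427I22Rik, starting at 139926111, had 0 and 3 counts in WT, 107 and 89 in P2KO and 77 and 66 in DKO. It was called higher in P2KO and in DKO than in WT (edgeR, adjusted p = 1.14e-11 and 1.81e-10). By counts, Pdpn (10, 21, 7, 6, 4 and 6 in the order WT, P2KO, DKO) and Fhad1os2 (8, 13, 8, 12, 1 and 5) just met the rule, and Gm13100 (6, 11, 6, 9, 4 and 9) and Ctrc (12, 4, 9, 3, 1 and 2) just missed it.

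Set beside the next stretches of the same chromosome, fewer of the genes nearest the Padi loci were called in P2KO against WT. There 1 of 47 members (2.13%) was called, 13 of 80 tested genes (16.2%) in the next 5 Mb below, 22 of 83 (26.5%) in the next 5 Mb above, 0.0988% of the rest of chromosome 4 and 0.169% of genes on other chromosomes. In DKO against WT the shares were 19.1%, 37.5%, 32.5%, 6.52% and 2.74%, and in DKO against P2KO they were 8.51%, 13.8%, 2.41%, 4.94% and 0.938%. The calls of 2-fold or more in P2KO against WT numbered 0 among the members, 3 in the 5 Mb below and 17 in the 5 Mb above. The largest absolute log2 fold changes, called or not, were 1.30, 5.85 and 7.62. That of the members belongs to Pdpn, which has few counts and was not called (edgeR, adjusted p = 0.488), whereas those of the flanking stretches were called. In DKO against WT the calls of 2-fold or more numbered 2, 8 and 18. These shares are a description, the difference between the stretches was not tested, and the comparisons share libraries.

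**Figure D5:**
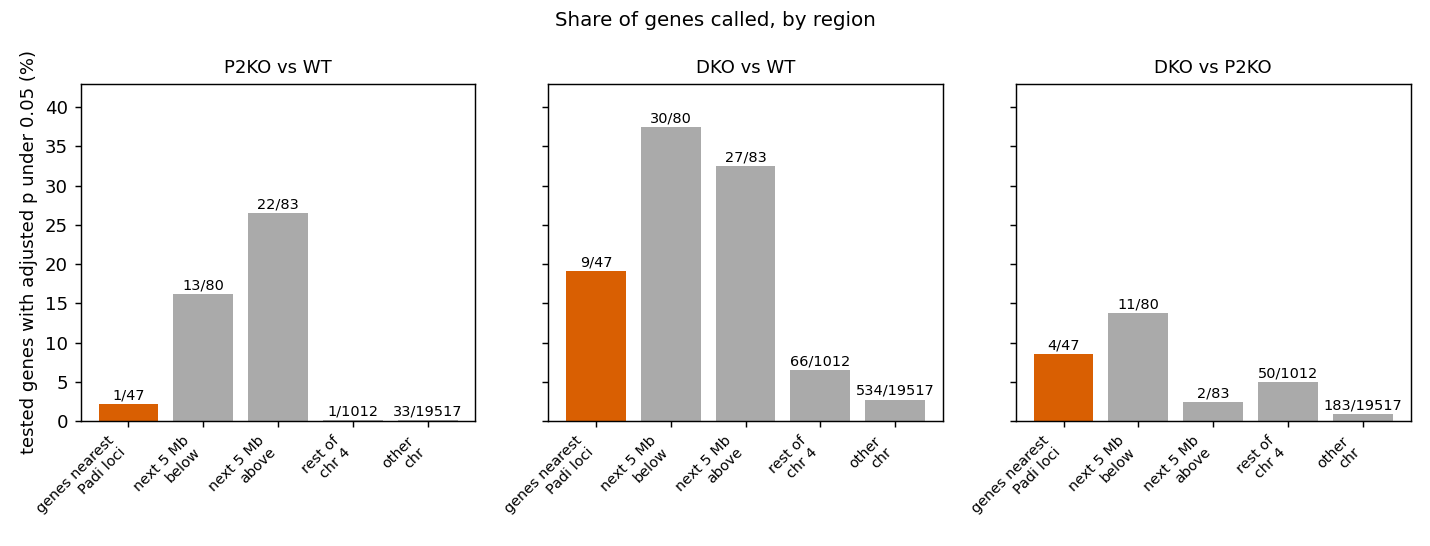
Percent of tested genes with an adjusted p under 0.05 (bars from 0) for the genes nearest the Padi loci, the next 5 Mb below and above, the rest of chromosome 4 and the other chromosomes, in 3 panels by comparison, with called and tested genes printed over each bar. In P2KO against WT the bar of the genes nearest the Padi loci (2.13%) stands below those of both flanking stretches (16.2% and 26.5%).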

How the data were processed

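RNA of 6 mouse testis libraries, 2 per genotype, was sequenced by the authors in pairs of reads after poly(A) selection with a strand-specific kit. As deposited by the authors, the values are raw counts per gene that STAR made from reads trimmed by Trim Galore and aligned to GRCm38. Tool versions and which of STAR's counts by strand was deposited are not given in the sources used here, so genes overlapping on opposite strands are named as such.

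Positions, types and exon lengths came from GENCODE M21 (GRCm38), in which all 55536 identifiers were found. Counts were fitted in R 4.3.3 with edgeR 4.0.16 (filterByExpr with a minimum count of 10, TMM scaling, glmQLFit and glmQLFTest on all 6 libraries, 3 residual degrees of freedom). All 47 members were among the 20744 genes tested. Benjamini-Hochberg adjustment ran over all of these, and an adjusted p under 0.05 was a call. The standard error is the absolute log2 fold change over the square root of F, and the 95% interval uses the t quantile of the fit. Normalized counts are scaled to the geometric mean of the 6 TMM-scaled library sizes, and RPKM uses the TMM-scaled size and the exon length. Libraries of 1 genotype differed beyond sampling noise, with a chi-square per degree of freedom from 3.24 to 4.61. Groups of 2 libraries cannot reach 0.05 in an exact permutation test of 1 gene.

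Near-identical copies were transcripts of other genes with at least 95% identity over at least 150 bases and 50% of the shorter transcript (BLAST 2.17.0). Named genes were those called in any comparison, the 3 nearest the Padi cluster on each side, the 2 with the highest mean normalized count in each role list, and the 3 highest in no list. Necap2, Zbtb17, Casp9, Epha2, Arhgef19, Fhad1os2, Pdpn, C87977, Gm13127, Igsf21 and the genes at the limits of the rule were named in addition after their values were seen. The members and lists were chosen with earlier results of these data known.

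The alternatives were RLE, upper-quartile or off-chromosome-4 TMM scaling, no count filter or a mean of at least 50 counts, DESeq2 1.42.0 fitted to 6 libraries or to each pair of genotypes, edgeR fitted to each pair, the replicate number as a block, each library left out in turn, and a length correction (lowess, span 0.3) added after seeing the data. The RefSeq table held no promoter entry for Necap2, 4921514A10Rik, Rsg1, Tmem82, Gm29367, 4930455G09Rik, Prdm2, Pramef8, C87977, Pramef12 and Gm13127. A member that the naming rule covers is not reported here, although the counts include it.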

Additional observations from a re-analysis of the deposited data

Results flagged for a closer look

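In 4 members the change in DKO differed from the change in P2KO by a direct test of DKO against P2KO (edgeR's quasi-likelihood test, adjusted over all tested genes). Spata21 was higher in DKO than in P2KO by 0.27 on the log2 scale (edgeR, adjusted p = 0.0112) and Plekhm2 by 0.32 (edgeR, adjusted p = 0.00317), in 2 of 2 DKO libraries against both P2KO libraries. Hspb7 differed by -0.49 (edgeR, adjusted p = 0.00163) and Efhd2 by -0.53 (edgeR, adjusted p = 0.00025), again with both DKO libraries beyond both P2KO libraries. In P2KO against WT the same genes gave log2 fold changes of 0.11, -0.03, 0.02 and -0.16 for Spata21, Plekhm2, Hspb7 and Efhd2. The Efhd2 value was a call without WT replicate 2, at -0.31 (edgeR, adjusted p = 0.0099). Each of the 4 calls was lost without P2KO replicate 2, at 0.17, 0.31, -0.40 and -0.32 in that order (edgeR, adjusted p = 0.395, 0.0652, 0.095 and 0.114). Why these genes differ between the knockouts was not tested.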

How the results depend on the processing

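No call of a member changed sign in any alternative, while the calls of cell type markers were not followed through the alternatives. Of the comparisons called only in an alternative, P2KO against WT also took the other sign for Spen, at -0.07 without WT replicate 2, and for Efhd2, at 0.01 without WT replicate 1 and 0.03 without P2KO replicate 1, none of these 3 values being called. In P2KO against WT, 1 member was called higher with no filter on low counts (Vps13d) in place of 0, and leaving out each library in turn gave 0 to 2 higher and 1 to 2 lower. Both calls higher, Spen and Vps13d, came without WT replicate 1. In DKO against WT, 8 were called lower with upper-quartile scaling, 3 in DESeq2 on all 6 libraries and 2 in DESeq2 on the 2 genotypes, in place of 5, and leaving out libraries gave 2 to 6 higher (2 without DKO replicate 2) and 1 to 6 lower (1 without DKO replicate 1). In DKO against P2KO, 1 was called lower in DESeq2 on all 6 libraries and 0 in DESeq2 on the 2 genotypes, in place of 2, and leaving out libraries gave 0 to 3 higher (0 without DKO replicate 1) and 0 to 2 lower (0 without P2KO replicate 2). DESeq2 gave no adjusted p for Fam131c in DKO against WT, for Fblim1 there on 6 libraries, or for Hspb7 in DKO against P2KO on the 2 genotypes. The causes were not tested.

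With the replicate block the members called were 0 higher and 1 lower in P2KO against WT, 4 and 5 in DKO against WT, and 2 and 2 in DKO against P2KO, as without it, and no call of a named gene changed. Deviations of same-numbered libraries correlated at -0.0572, 0.0574 and -0.0502, which shows no shared deviation, and whether same-numbered libraries were processed together is not given in the sources used here. Over all tested genes, the calls ranged across the alternatives from 22 to 221 higher and 18 to 90 lower in P2KO against WT (41 and 29 as reported; 24 and 21 with the block), from 129 to 762 and 105 to 322 in DKO against WT (428 and 240), and from 51 to 348 and 54 to 274 in DKO against P2KO (126 and 124). Depth limits genes such as Fam131c, Pdpn and Fhad1os2, whose intervals exceed a 2-fold change.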
